A study of Mus musculus with 9 samples.

Results

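The Hox genes of the mouse lie in 4 clusters, and 38 of them had a row in the expression table of newborn dermal cells described here. They were found as every gene symbol made of Hox, a cluster letter from a to d and a paralogue number. The 38 genes filled 32 of the 84809 rows of the table, because 3 rows joined several Hox genes whose transcripts had been assembled together. Hoxc12 was not analysed here. All 9 libraries came from newborn Krt14 cre;Rosa26-mTmG mice, which carry a Cre recombinase driven by the promoter of Krt14, a basal keratinocyte keratin, and a membrane-tagged reporter on the Rosa26 locus that records past Cre activity. Dermal cells labelled as mesenchymal were separated in a cell sorter by surface CD49f, which is integrin α6, into CD49f-high, CD49f-low and CD49f-neg gates, with 3 libraries per gate. They were lysed straight after the sort without culture. Whether the replicates are separate animals or litters is not stated, so p-values measure the spread between these libraries, which may be technical. The body site of the skin is not named either.

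Hox genes encode homeodomain transcription factors whose order along each cluster matches the order in which they are switched on along the head to tail axis of the embryo. Low paralogue numbers are used from the hindbrain and neck down, and high numbers toward the lumbar, tail and distal limb regions. Skin fibroblasts keep much of this positional pattern after development. Hox proteins bind DNA together with the TALE homeodomain proteins of the Pbx and Meis families, retinoic acid induces genes at the anterior end of the clusters, and Polycomb proteins keep unused clusters silent.

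Coordinates are those of the deposited table, on the mouse genome build GRCm38. The Hoxa genes lay on the minus strand of chromosome 6 with 11 genes in 10 rows. The Hoxb genes lay on the plus strand of chromosome 11 (96194316 to 96368256) with 10 genes in 10 rows. The Hoxc genes lay on the plus strand of chromosome 15 (102921103 to 103036852) with 8 genes in 4 rows, and the Hoxd genes on the plus strand of chromosome 2 (74668310 to 74765142) with 9 genes in 8 rows. The 3 joined rows held Hoxa2 with Hoxa3, Hoxd3 with Hoxd4, and Hoxc4 with Hoxc5, Hoxc6, Hoxc9 and Hoxc10. For these rows it is uncertain which gene was measured. Antisense genes within the clusters are uncertain too, since the strand used in counting is not stated.

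Values are FPKM, fragments counted per kilobase of transcript and scaled to the mapped fragments of the library. One FPKM over 1 kb of transcript stood for an estimated 23.7 to 27.3 fragments in the 9 libraries. Library totals lay between 423745 and 543843 FPKM, of which the top 10 rows took 47.5% to 61.3%. Rows with at least 1 FPKM in at least 3 libraries were tested with limma on log2(FPKM + 1), on which scale the change of genes with low FPKM is understated. The filter kept 20523 rows, among them 19 Hox rows with 25 Hox genes, and left 13 Hox genes untested. Of the 19 rows, 8 reached 1 FPKM in all 9 libraries. The other 11 passed through part of the libraries. Hoxa6, Hoxa7 and Hoxb5 passed without any CD49f-high library, and the row of Hoxa2 and Hoxa3 without any CD49f-neg library. Libraries with the same replicate number deviated together from their gate means. The deviations of replicate 1 of each gate correlated negatively with those of every library of another number. Deviations within a gate cancel out, so positive correlations within a number push those between numbers toward negative values. The negative values are therefore no separate sign that replicate 1 differs. Without replicate 1 of every gate, 10 Hox rows were lower in CD49f-high against CD49f-neg and 9 in CD49f-high against CD49f-low. In CD49f-low against CD49f-neg, 1 was then higher and 1 lower. A row is called higher or lower where its Benjamini-Hochberg adjusted p, computed across the 20523 rows, was under 0.05.

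The cells carried fibroblast transcripts in every gate, and other cell types were represented unevenly. Summed FPKM of 6 fibroblast markers (Col1a1, Col1a2, Col3a1, Pdgfra, Dcn and Lum) ran from 3920 to 5920 in CD49f-high, from 5403 to 6615 in CD49f-low and from 13520 to 16510 in CD49f-neg. All 6 were called lower in CD49f-high than in CD49f-neg, 5 of 6 in CD49f-low than in CD49f-neg, and 2 of 6 in CD49f-high than in CD49f-low. The 6 pericyte markers summed to 512.2 to 884.2 FPKM in CD49f-high, to 47.3 to 87.7 in CD49f-low and to 36.9 to 49.7 in CD49f-neg. The 6 smooth muscle markers summed to 314.8 to 641 FPKM in CD49f-high, to 53.2 to 93.1 in CD49f-low and to 12.7 to 17.8 in CD49f-neg. Schwann markers reached 33.3 to 192.2 FPKM in CD49f-high, 39.6 to 50.8 in CD49f-low and 0.297 to 0.516 in CD49f-neg, and melanocyte markers reached 7.20 to 15.5, 398.6 to 491.3 and 2.17 to 3.44 FPKM in the same order of gates. The 6 keratinocyte markers, in 5 rows since Krt14 and Krt15 share 1, summed to 14.5 to 33.8 FPKM in CD49f-high, to 5.19 to 9.37 in CD49f-low and to 0.956 to 1.44 in CD49f-neg. The 6 dermal papilla markers summed to 23.2 to 38.0 FPKM in CD49f-high, to 110.3 to 159.1 in CD49f-low and to 15.6 to 29.2 in CD49f-neg. Endothelial, skeletal muscle and immune marker sums were at most 14.4, 20.0 and 3.84 FPKM in any library. These values move with the gates, and their part in the Hox differences was not tested. In such bulk libraries, fewer cells of a type and less RNA per cell cannot be told apart.

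Hox transcripts were present at low levels in all 3 gates, with the same 4 rows on top. Hoxb2, Hoxd8, Hoxc8 and Hoxb9 were the 4 most abundant Hox rows in each gate and together held 42.6% to 48.4% of the summed Hox FPKM of a CD49f-high library, 35.0% to 39.3% in CD49f-low and 48.5% to 49.0% in CD49f-neg. Hoxb2 led in CD49f-high, at 5.56 ± 0.266 FPKM (SD, n = 3, as for all means below). Hoxc8 led in CD49f-low and CD49f-neg, at 7.38 ± 1.13 and 8.99 ± 1.72 FPKM. FPKM are per length, so these levels can be set beside each other, but neighbours in the order overlapped in places: in CD49f-neg, Hoxc8 (7.40 to 10.8 FPKM) and Hoxd8 (8.31 to 9.67 FPKM) did not separate.

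**Figure D1:**
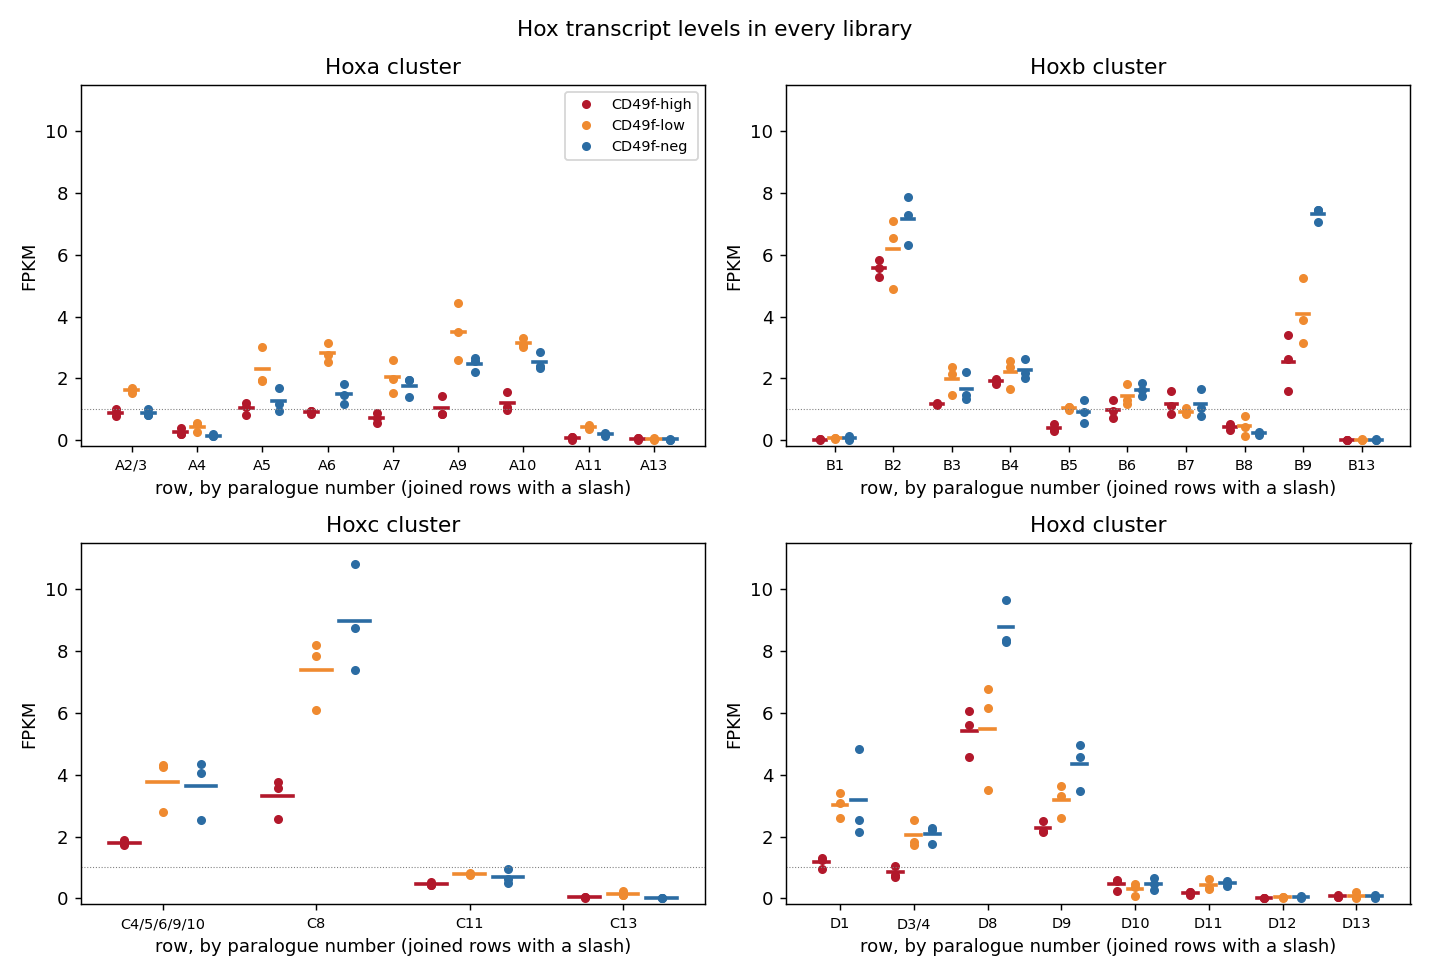
FPKM of Hox rows in every library (points) with the gate mean (bars), 1 panel per cluster and rows ordered by paralogue number; the dotted line marks 1 FPKM. Hoxb2, Hoxb9, Hoxc8 and Hoxd8 stand highest in every gate, and rows of paralogue 11 and above lie under 1 FPKM.

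Summed over all 32 rows, Hox transcripts stood at 37.0, 36.8 and 37.5 FPKM in the CD49f-high libraries, at 62.7, 56.1 and 66.1 FPKM in the CD49f-low libraries and at 62.7, 66.1 and 69.9 FPKM in the CD49f-neg libraries. Every CD49f-high library lay below every other library, while CD49f-low and CD49f-neg overlapped. The mean of CD49f-high was 0.560 of that of CD49f-neg and 0.602 of that of CD49f-low, and the mean of CD49f-low was 0.931 of that of CD49f-neg. By cluster, the ratio of CD49f-high to CD49f-neg was 0.629 for Hoxa, 0.633 for Hoxb, 0.420 for Hoxc and 0.535 for Hoxd. The ratio of CD49f-low to CD49f-neg was 1.50 for Hoxa, 0.819 for Hoxb, 0.907 for Hoxc and 0.750 for Hoxd. Hoxa was the cluster whose sum was higher in CD49f-low (14.3 to 19.0 FPKM) than in CD49f-neg (10.5 to 11.8 FPKM), with no overlap. Within each library, Hoxa rows made up 16.6% to 22.4% of Hox FPKM in CD49f-high, 25.2% to 30.4% in CD49f-low and 15.8% to 18.8% in CD49f-neg. The CD49f-low share lay above both other gates in all 3 libraries, a ratio within a library that does not depend on its scaling. These sums are descriptions, with no test.

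**Figure D2:**
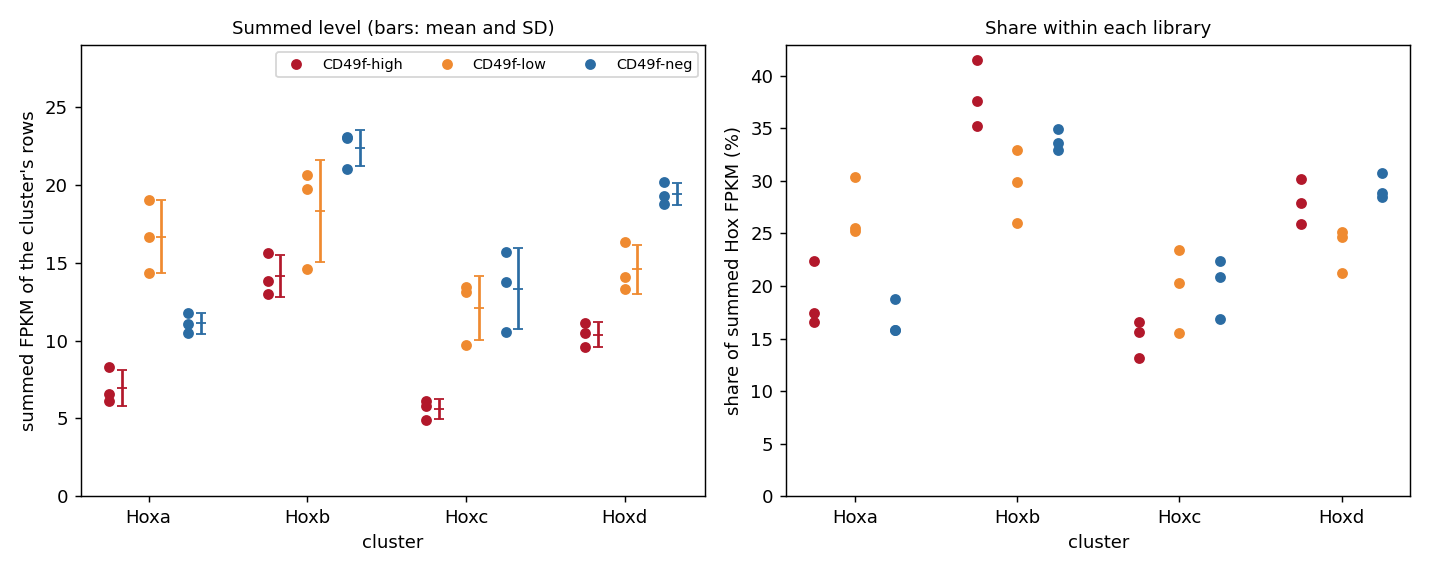
Left, summed FPKM of the rows of each Hox cluster in every library (points) with mean and SD (bars); right, the share of a library's summed Hox FPKM held by each cluster, in percent. In CD49f-low the Hoxa sum reaches 14.3 to 19.0 FPKM and the Hoxa share 25.2% to 30.4%, above both other gates.

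Between CD49f-high and CD49f-neg, the tested Hox rows called lower in CD49f-high came from all 4 clusters. Of the 19 rows tested, 9 were called lower and 0 higher by limma, and 0 rows were higher at an unadjusted p under 0.05, where 14 were lower. Over all 20523 rows, 8.27% were called lower and 13.9% higher. In 16 Hox rows the 3 CD49f-high libraries all lay below the 3 CD49f-neg libraries, against 13.9% of all rows. The Hox rows had a median log2 difference of -0.61, against 0.07 for all rows, and 17 of 19 were below 0. The rows called lower were Hoxa7, Hoxa9, Hoxa10, Hoxb9, the joined Hoxc row, Hoxc8, Hoxd1, the Hoxd3/Hoxd4 row and Hoxd9. Among the 8 rows that reached 1 FPKM in all libraries, 4 were called lower. The other rows called lower reached 1 FPKM in fewer CD49f-high than CD49f-neg libraries, so the filter favoured this direction. Of all calls in this comparison 62.6% were higher in CD49f-high, a share that was 52.8% under median-of-ratios scaling and 48.6% under quantile normalization. With the replicate number as a block, 13 Hox rows were called lower, the added ones being Hoxa6, Hoxb5, Hoxb6 and Hoxd8. Under either scaling 12 were called lower, the added ones being Hoxa6, Hoxb2 and Hoxd8.

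Between CD49f-low and CD49f-neg, few of the 19 tested Hox rows were called. Hoxa6 and the Hoxa2/Hoxa3 row were called higher and Hoxb9 was called lower, that is 2 rows higher and 1 lower, against 12.8% higher and 2.62% lower over all rows. Among the 8 rows that reached 1 FPKM in all libraries, 0 were called higher and 1 lower. Without overlap between the libraries, 4 Hox rows were higher, against 34.8% of all rows, and 2 were lower, against 5.77%. The median log2 difference was -0.00 for the Hox rows and 0.21 for all rows. The median of all rows was 0.01 under median-of-ratios scaling and -0.01 under quantile normalization, and the share of calls that were higher in CD49f-low was 83% as deposited, 52% and 50.9% under those scalings. Both Hoxa calls ended under either scaling (0 Hox rows higher), and 3 rows (Hoxb9, Hoxd8 and Hoxd9) were then called lower. Leaving out CD49f-neg replicate 3 left 0 Hox rows called higher or lower, and leaving out CD49f-neg replicate 2 or any 1 of the CD49f-low libraries left 1 higher. With the replicate block 3 rows were higher, Hoxa5 being added, and 2 were lower, Hoxd8 being added.

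Between CD49f-high and CD49f-low, 11 of the 19 Hox rows were called lower in CD49f-high and 0 higher, with 14 lower and 0 higher at an unadjusted p under 0.05. Over all rows 10.5% were called lower and 5.93% higher. The libraries did not overlap in 13 Hox rows, all lower in CD49f-high, against 27% of all rows. The median log2 difference was -0.55 for the Hox rows and -0.15 for all rows. The rows called lower were all 6 tested Hoxa rows (Hoxa2/Hoxa3, Hoxa5, Hoxa6, Hoxa7, Hoxa9 and Hoxa10), Hoxb5, both tested Hoxc rows, Hoxd1 and Hoxd3/Hoxd4. Among the 8 rows that reached 1 FPKM in all libraries, 2 were called lower, both of them Hoxc rows. The other rows called reached 1 FPKM in fewer CD49f-high than CD49f-low libraries, so the filter favoured this direction. Of all calls 36.1% were higher in CD49f-high as deposited, 54.1% under median-of-ratios scaling and 52.4% under quantile normalization, and under either scaling 7 Hox rows were called lower, the rows lost being Hoxa2/Hoxa3, Hoxa5, Hoxb5 and the joined Hoxc row. The count was also 6 or 7 without CD49f-high replicate 2 or 3 or without CD49f-low replicate 1 or 2. The 3 comparisons share libraries, so their counts are not independent of each other.

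**Figure D3:**
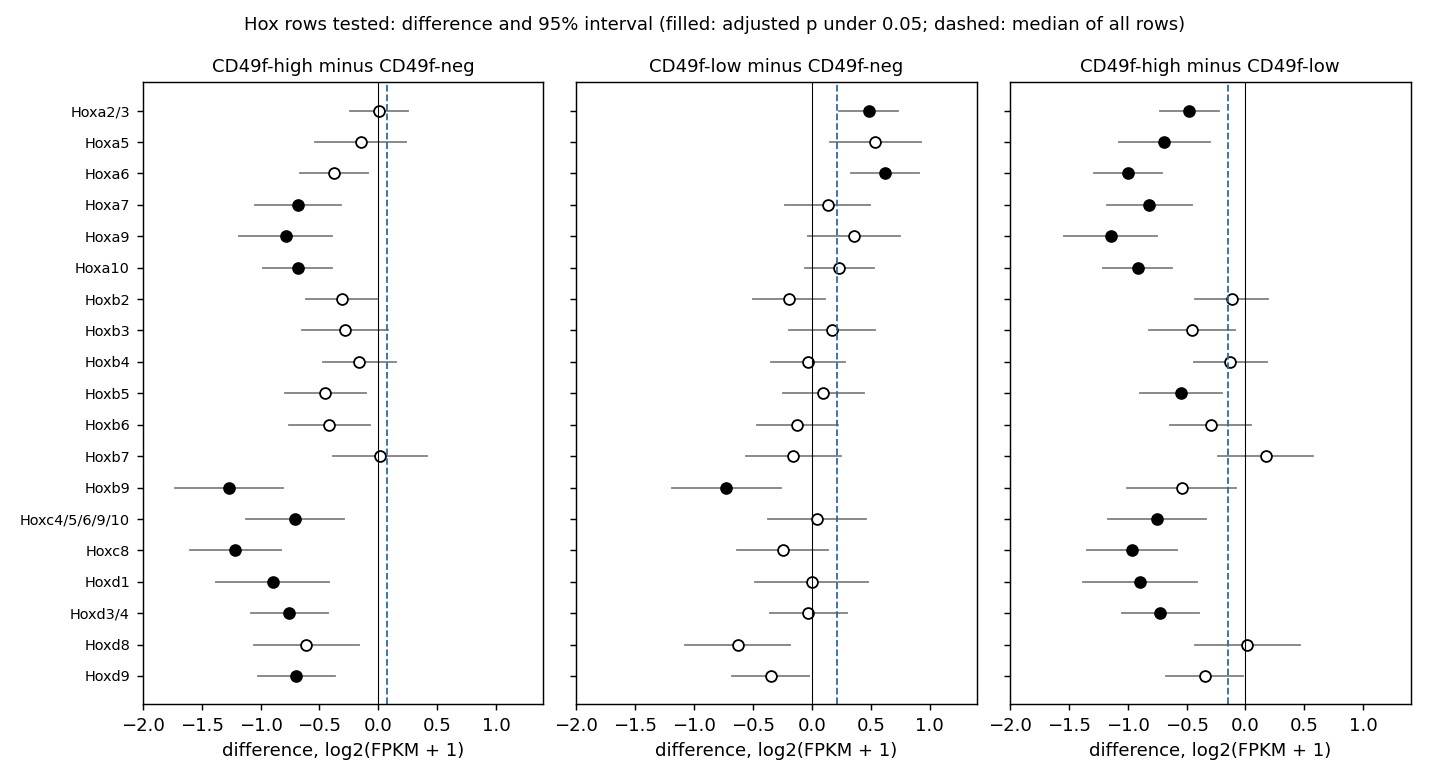
Log2 difference of FPKM + 1 (points) with its 95% interval (lines) for the 19 tested Hox rows in the 3 comparisons; filled points have an adjusted p under 0.05 and the dashed line is the median of all 20523 rows. In CD49f-high minus CD49f-neg all 19 Hox points lie below that median, and in CD49f-high minus CD49f-low all 6 Hoxa rows are filled and below 0.

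In the Hoxa cluster, CD49f-low held the highest mean in all 6 tested rows. The row of Hoxa2 and Hoxa3, which pattern the hindbrain and the pharyngeal arches, had 1.00, 0.774 and 0.867 FPKM in CD49f-high, 1.68, 1.53 and 1.63 FPKM in CD49f-low and 0.999, 0.820 and 0.801 FPKM in CD49f-neg. All CD49f-low libraries lay above all others, and the other 2 gates overlapped. The row reached 1 FPKM in 3 CD49f-low, 1 CD49f-high and 0 CD49f-neg libraries. It thus passed the filter through CD49f-low, which favoured a higher level there. Its log2 difference was 0.01 ± 0.11 (SE) in CD49f-high minus CD49f-neg (95% interval -0.24 to 0.25, limma adjusted p = 0.982), 0.48 ± 0.11 in CD49f-low minus CD49f-neg (adjusted p = 0.0193) and -0.48 ± 0.11 in CD49f-high minus CD49f-low (adjusted p = 0.0166). Over the alternatives the adjusted p of the CD49f-low difference from CD49f-neg ran from 0.00954 to 0.261, and the call ended without CD49f-neg replicate 2 or 3 or any 1 of the CD49f-low libraries. The call of CD49f-high against CD49f-low ended without any 1 of the CD49f-low libraries or CD49f-high replicate 2 or 3, and under both scalings (adjusted p 0.0511 and 0.087).

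Hoxa5, needed for lung and cervical skeleton, stood at 1.19, 0.809 and 1.07 FPKM in CD49f-high, at 3.00, 1.94 and 1.93 FPKM in CD49f-low and at 1.68, 0.953 and 1.15 FPKM in CD49f-neg. Only CD49f-low lay clear of the other 2 gates. It was called lower in CD49f-high than in CD49f-low (-0.69 ± 0.17, limma adjusted p = 0.0234, 0.0033 to 0.0826 over the alternatives), a call that ended with no filter, without CD49f-low replicate 1 or CD49f-high replicate 2 or 3, and under both scalings (0.059 and 0.0606). Its difference of 0.54 between CD49f-low and CD49f-neg had an adjusted p of 0.0637, and 0.0103 with the replicate block (0.0103 to 0.339 over the alternatives).

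Hoxa6, its neighbour and a gene of the neck and upper thorax, had 0.942, 0.836 and 0.952 FPKM in CD49f-high, 3.16, 2.75 and 2.54 FPKM in CD49f-low and 1.82, 1.18 and 1.47 FPKM in CD49f-neg. The 3 gates did not overlap, with CD49f-low on top, CD49f-neg between and CD49f-high lowest. It was lower in CD49f-high than in CD49f-low by limma (-0.995 ± 0.13, adjusted p = 0.000734), a ratio of means of 0.323, and higher in CD49f-low than in CD49f-neg (0.62 ± 0.13, adjusted p = 0.0121), a ratio of 1.89. The second call ended without CD49f-neg replicate 3 and under both scalings (adjusted p 0.00577 to 0.105 over the alternatives). Between CD49f-high and CD49f-neg its difference was -0.38 ± 0.13, with an adjusted p of 0.0663, and 0.0291 with the replicate block (0.0291 to 0.172 over the alternatives).

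Hoxa7, a thoracic gene, had 0.884, 0.726 and 0.537 FPKM in CD49f-high, 1.98, 1.54 and 2.60 FPKM in CD49f-low and 1.38, 1.94 and 1.94 FPKM in CD49f-neg. Hoxa9, known for its role in blood stem cells and leukaemia, had 1.41, 0.835 and 0.833 FPKM in CD49f-high, 4.44, 2.58 and 3.51 FPKM in CD49f-low and 2.54, 2.21 and 2.66 FPKM in CD49f-neg. Hoxa10, a gene of lumbar vertebrae and uterus, had 1.57, 1.07 and 0.970 FPKM in CD49f-high, 3.30, 3.02 and 3.07 FPKM in CD49f-low and 2.41, 2.83 and 2.33 FPKM in CD49f-neg. In all 3 genes the CD49f-high libraries lay below every other library. The row of Hoxa9 also covers the microRNA gene Mir196b.

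Relative to CD49f-neg, the log2 difference of CD49f-high was -0.68 ± 0.16 for Hoxa7, -0.79 ± 0.18 for Hoxa9 and -0.68 ± 0.13 for Hoxa10 (limma adjusted p = 0.0139, 0.0102 and 0.00436). Relative to CD49f-low it was -0.82 ± 0.16 for Hoxa7, -1.14 ± 0.18 for Hoxa9 and -0.92 ± 0.13 for Hoxa10 (adjusted p = 0.00764, 0.00196 and 0.00127). Mean levels in CD49f-high were 0.351 of CD49f-low for Hoxa7, 0.293 for Hoxa9 and 0.384 for Hoxa10. The call of Hoxa7 against CD49f-neg ended without CD49f-neg replicate 2 or 3 or CD49f-high replicate 3 (adjusted p up to 0.0594). In CD49f-low minus CD49f-neg the 3 differences were 0.13, 0.36 and 0.23 with adjusted p of 0.584, 0.188 and 0.243, so none passed. All 6 tested Hoxa rows were above 0 in CD49f-low minus CD49f-neg as deposited, but Hoxa7 was at -0.05 under median-of-ratios scaling and -0.10 under quantile normalization.

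In the Hoxb cluster, the call against CD49f-neg was on Hoxb9, toward the posterior end. Hoxb9, which takes part in rib patterning, had 1.58, 2.63 and 3.39 FPKM in CD49f-high, 5.26, 3.14 and 3.89 FPKM in CD49f-low and 7.44, 7.07 and 7.44 FPKM in CD49f-neg. Every CD49f-neg library lay above all others, and CD49f-high and CD49f-low overlapped. Its mean in CD49f-high was 0.347 of CD49f-neg (log2 difference -1.27 ± 0.21, limma adjusted p = 0.0018) and in CD49f-low 0.560 of CD49f-neg (-0.73 ± 0.21, adjusted p = 0.0428). The second call had adjusted p of 0.0161 to 0.144 over the alternatives and ended in 8 of 18: a pseudocount of 0.1, no filter, and without any 1 of the CD49f-neg libraries, CD49f-low replicate 2 or 3, or CD49f-high replicate 2. Between CD49f-high and CD49f-low the difference was -0.54 ± 0.21, with an interval whose upper end was -0.08 and an adjusted p of 0.109.

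Hoxb2, an anterior gene of hindbrain segments, had 5.83, 5.56 and 5.30 FPKM in CD49f-high, 7.10, 4.90 and 6.53 FPKM in CD49f-low and 7.27, 7.86 and 6.33 FPKM in CD49f-neg. CD49f-high lay below CD49f-neg without overlap, but the difference of -0.31 ± 0.14 did not pass (limma adjusted p = 0.145), and its interval ran from -0.62 to -0.00; under the scalings it was called (-0.40 with adjusted p = 0.046 and -0.43 with 0.0411). Hoxb5 had 0.307, 0.344 and 0.520 FPKM in CD49f-high, 1.07, 1.06 and 0.956 FPKM in CD49f-low and 0.549, 0.920 and 1.28 FPKM in CD49f-neg. It was called lower in CD49f-high than in CD49f-low (-0.55 ± 0.15, adjusted p = 0.0387, 0.0192 to 0.253 over the alternatives), a call that ended with no filter, without CD49f-neg replicate 2, CD49f-low replicate 3 or any 1 of the CD49f-high libraries, and under both scalings (0.102 and 0.253).

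The remaining tested Hoxb rows, Hoxb3, Hoxb4, Hoxb6 and Hoxb7, were called in no comparison and had gate means of 0.908 to 2.26 FPKM. Hoxb4, a gene used to expand blood stem cells, averaged 1.90 ± 0.0792 FPKM in CD49f-high, 2.20 ± 0.478 in CD49f-low and 2.26 ± 0.323 in CD49f-neg. Hoxb7 averaged 1.17 ± 0.372 FPKM in CD49f-high, 0.908 ± 0.107 in CD49f-low and 1.16 ± 0.461 in CD49f-neg, with a difference of 0.01 in CD49f-high minus CD49f-neg and an interval of -0.39 to 0.42. A change of Hoxb7 of that size in either direction is not excluded. Hoxb6 averaged 0.979 ± 0.29 FPKM in CD49f-high, 1.42 ± 0.341 in CD49f-low and 1.63 ± 0.214 in CD49f-neg; its difference of -0.42 between CD49f-high and CD49f-neg had a limma adjusted p of 0.0833, and 0.013 with the replicate block (0.013 to 0.242 over the alternatives). For Hoxb5 the same comparison gave -0.45 with an adjusted p of 0.0662, and 0.0393 with the block (0.018 to 0.157).

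In the Hoxc cluster both tested rows were lower in CD49f-high than in either other gate. Hoxc8, which specifies thoracic vertebrae and forelimb motor neurons (chromosome 15, 102990607 to 102994111), had 3.76, 3.58 and 2.57 FPKM in CD49f-high, 6.08, 7.85 and 8.20 FPKM in CD49f-low and 7.40, 8.77 and 10.8 FPKM in CD49f-neg. All CD49f-high libraries lay below all others, and CD49f-low and CD49f-neg overlapped. The log2 difference was -1.21 ± 0.17 in CD49f-high minus CD49f-neg (limma adjusted p = 0.000804) and -0.96 ± 0.17 in CD49f-high minus CD49f-low (adjusted p = 0.00434), with ratios of means of 0.367 and 0.448. Hoxc8 was called under all 18 alternatives in both comparisons.

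The joined row of Hoxc4, Hoxc5, Hoxc6, Hoxc9 and Hoxc10, which also covers the microRNA genes Mir196a-2 and Mir615, had 1.89, 1.72 and 1.80 FPKM in CD49f-high, 2.78, 4.24 and 4.30 FPKM in CD49f-low and 2.53, 4.05 and 4.35 FPKM in CD49f-neg. CD49f-high was lower than both other gates without overlap, at -0.70 ± 0.19 against CD49f-neg (limma adjusted p = 0.0227) and -0.75 ± 0.19 against CD49f-low (adjusted p = 0.0222). In CD49f-low and CD49f-neg replicate 1 lay below replicates 2 and 3. Without replicate 1 of every gate the differences were -0.91 and -0.93. The calls ended without any 1 of the CD49f-high libraries or without CD49f-neg replicate 2 or 3 in the first comparison (adjusted p 0.00259 to 0.0923), and without CD49f-low or CD49f-high replicate 2 or 3 in the second (0.00529 to 0.0941). No filter ended both, and the scalings ended the second (0.0593 under median-of-ratios, 0.0601 under quantile).

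In the Hoxd cluster, Hoxd1, Hoxd3/Hoxd4 and Hoxd9 were lower in CD49f-high than in CD49f-neg. Hoxd1, known in mouse for the wiring of pain-sensing neurons, had 1.24, 1.30 and 0.956 FPKM in CD49f-high, 3.41, 3.09 and 2.59 FPKM in CD49f-low and 4.84, 2.54 and 2.15 FPKM in CD49f-neg. The row of Hoxd3 and Hoxd4, genes of the neck vertebrae, had 0.763, 1.06 and 0.685 FPKM in CD49f-high, 1.73, 1.83 and 2.55 FPKM in CD49f-low and 1.77, 2.22 and 2.29 FPKM in CD49f-neg. Both rows were lowest in all CD49f-high libraries and overlapped between CD49f-low and CD49f-neg. Hoxd1 differed by -0.90 ± 0.21 from CD49f-neg and by -0.90 ± 0.21 from CD49f-low (limma adjusted p = 0.0145 and 0.0192), and Hoxd3/Hoxd4 by -0.75 ± 0.15 and -0.72 ± 0.15 (adjusted p = 0.00481 and 0.00845). Both Hoxd1 calls ended without CD49f-high replicate 3, and the second also without CD49f-low replicate 1 or 2 (adjusted p up to 0.053 against CD49f-neg and up to 0.0742 against CD49f-low over the alternatives).

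Hoxd9, a gene of the lumbar axis and the proximal limb, had 2.16, 2.17 and 2.49 FPKM in CD49f-high, 3.31, 2.59 and 3.65 FPKM in CD49f-low and 3.47, 4.59 and 4.95 FPKM in CD49f-neg. Its CD49f-high libraries were below all others, and it was called lower against CD49f-neg (-0.70 ± 0.15, limma adjusted p = 0.00742) but not against CD49f-low (-0.35 ± 0.15, adjusted p = 0.143). Hoxd8, which lies between Hoxd9 and Hoxd3 and Hoxd4, had 4.56, 6.05 and 5.62 FPKM in CD49f-high, 3.50, 6.15 and 6.79 FPKM in CD49f-low and 8.31, 8.35 and 9.67 FPKM in CD49f-neg. Both CD49f-high and CD49f-low lay below every CD49f-neg library and overlapped with each other. The differences of -0.61 ± 0.20 and -0.63 ± 0.20 from CD49f-neg had adjusted p of 0.0534 and 0.0601, and 0.0145 and 0.0175 with the replicate block (0.00866 to 0.164 and 0.0175 to 0.177 over the alternatives). CD49f-high minus CD49f-low was 0.02, with an interval of -0.43 to 0.46.

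Upstream sequences are shown for the Hoxd3/Hoxd4 row, which was called lower in CD49f-high, for its neighbour Hoxd8, which was not, and for Hoxa6, whose drop from CD49f-low had the smallest adjusted p of the Hox rows. They are the 250 bases before the RefSeq start of each gene (GRCm38.p6), read 5′ to 3′ on the gene's strand, at chr2:74711743-74711992 (plus, Hoxd3), chr2:74721728-74721977 (plus, Hoxd4), chr2:74704365-74704614 (plus, Hoxd8) and chr6:52208673-52208922 (minus, Hoxa6). Capitals mark AGGTCA, the core of retinoic acid receptor binding sites, or its reverse TGACCT.
Hoxd3: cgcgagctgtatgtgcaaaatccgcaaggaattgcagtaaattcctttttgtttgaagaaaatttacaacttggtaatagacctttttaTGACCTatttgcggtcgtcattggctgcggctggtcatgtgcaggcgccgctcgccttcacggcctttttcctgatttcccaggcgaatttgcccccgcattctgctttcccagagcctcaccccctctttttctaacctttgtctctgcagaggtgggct
Hoxd4: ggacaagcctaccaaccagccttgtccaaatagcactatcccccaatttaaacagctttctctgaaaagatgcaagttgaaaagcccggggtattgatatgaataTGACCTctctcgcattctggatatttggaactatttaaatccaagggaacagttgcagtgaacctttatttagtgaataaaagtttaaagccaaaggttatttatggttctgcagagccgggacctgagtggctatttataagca
Hoxd8: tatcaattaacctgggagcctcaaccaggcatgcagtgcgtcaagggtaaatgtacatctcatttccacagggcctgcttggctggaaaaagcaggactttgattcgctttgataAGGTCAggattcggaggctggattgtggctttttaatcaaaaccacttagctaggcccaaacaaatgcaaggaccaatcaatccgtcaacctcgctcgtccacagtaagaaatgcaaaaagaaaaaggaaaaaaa
Hoxa6: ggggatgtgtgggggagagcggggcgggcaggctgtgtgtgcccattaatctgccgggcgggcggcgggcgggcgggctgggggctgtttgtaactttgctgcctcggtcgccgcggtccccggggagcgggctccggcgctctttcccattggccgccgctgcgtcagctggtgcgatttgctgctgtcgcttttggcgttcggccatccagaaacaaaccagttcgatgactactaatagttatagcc
Relative to the gene start, the motif lay at -161 for Hoxd3, at -145 for Hoxd4 and at -135 for Hoxd8, and the Hoxa6 window had none. The Hoxa6 window instead held 5 matches of GGGCGG, the SP box, or its reverse CCGCCC. In RefSeq windows of 250 bases before to 50 after the start, found for 22 of the 38 genes (24 windows), AGGTCA was in 7 of 24 Hox windows (29.2%), against 16.3% of all 32851 windows. The Hox and Pbx composite TGATNNAT was in 4 of 24 (16.7%, against 8.8%), the Meis site TGACAG in 2 of 24 (8.3%, against 19.2%) and the SP box in 10 of 24 (41.7%, against 35.7%). Both strands were searched, matches may share bases, and a match is a description and not a binding site. AGGTCA stood before both called and uncalled rows.

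Hox genes not tested were mostly of the posterior end. The 13 rows included Hoxa4, Hoxa11, Hoxa13, Hoxb1, Hoxb8, Hoxb13, Hoxc11, Hoxc13 and Hoxd10 to Hoxd13. None was above 0.956 FPKM in any library, and 5 had a library listed at 0. Hoxa4 had 0.205, 0.197 and 0.381 FPKM in CD49f-high, 0.503, 0.248 and 0.536 FPKM in CD49f-low and 0.181, 0.114 and 0.138 FPKM in CD49f-neg. Hoxb8 had 0.529, 0.324 and 0.446 FPKM, 0.434, 0.143 and 0.769 FPKM and 0.245, 0.178 and 0.226 FPKM in the same order. CD49f-high lay above CD49f-neg without overlap in both genes, at an estimated 5 to 22 and 10 to 51 fragments per library. Hoxa11 and Hoxd11, below, went the other way.

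Hoxa11, a gene of the forearm and lower leg, had 0.0877, 0.0166 and 0.0856 FPKM in CD49f-high, 0.491, 0.346 and 0.426 FPKM in CD49f-low and 0.191, 0.117 and 0.240 FPKM in CD49f-neg, with no overlap between gates and an estimated 1 to 28 fragments per library. With no filter it was lower in CD49f-high than in CD49f-low by 0.42 on the log2 scale (limma adjusted p = 0.0315). Hoxc11 averaged 0.460 ± 0.0565 FPKM in CD49f-high, 0.796 ± 0.0289 in CD49f-low and 0.690 ± 0.238 in CD49f-neg, and Hoxd11 0.170 ± 0.0450, 0.423 ± 0.180 and 0.489 ± 0.0765 FPKM in the same order. Hoxc13, needed for hair and nail formation, was at 0.0896, 0.224 and 0.113 FPKM in CD49f-low, against at most 0.0540 FPKM in CD49f-high and 0.0162 FPKM in CD49f-neg. The other genes of paralogue group 13, which pattern digits, genitalia and tail, were at most 0.202 FPKM in any library, and Hoxb13 was listed at 0 in 7 of 9 libraries.

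Grouped by paralogue number, the summed level of the anterior rows (1 to 3, 6 rows) in CD49f-high was 0.725 of that in CD49f-neg, that of the central rows (4 to 8, 11 rows) 0.577 and that of the posterior rows (9 to 13, 13 rows) 0.448. The 2 joined rows that span classes were at 0.460. Hoxb2 alone held 5.56 of the 9.63 FPKM of the anterior rows in CD49f-high and 7.15 of 13.3 FPKM in CD49f-neg. Ratios of the tested anterior rows ran from 0.367 for Hoxd1 to 1.01 for Hoxa2/Hoxa3, so the anterior sum does not stand for each row. The posterior rows stood at 8.34 ± 0.709 FPKM in CD49f-high, 16.2 ± 2.92 in CD49f-low and 18.6 ± 0.839 in CD49f-neg. Their share of Hox FPKM was 21.0% to 24.3% in CD49f-high, 23.5% to 30.4% in CD49f-low and 27.5% to 28.6% in CD49f-neg. Over the 16 tested rows with 1 Hox gene, paralogue number and log2 difference had a Spearman correlation of -0.518 in CD49f-high minus CD49f-neg, -0.203 in CD49f-low minus CD49f-neg and -0.235 in CD49f-high minus CD49f-low. These values are a description across genes of the same libraries, and a low FPKM compresses the log2 scale.

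Other transcripts of the cluster intervals were mostly under the filter. Of 52 further rows that overlap the 4 intervals, 5 were tested. The most abundant of them, in the Hoxb interval, had 44.0 to 54.4 FPKM in CD49f-high, 53.0 to 58.2 in CD49f-low and 55.9 to 60.5 in CD49f-neg. It was called in no comparison. Its limma adjusted p was 0.245 in CD49f-high against CD49f-neg, 0.634 in CD49f-low against CD49f-neg and 0.5 in CD49f-high against CD49f-low. The row of Gm53 and Mir196a-1, upstream of Hoxb9, averaged 0.822 ± 0.351 FPKM in CD49f-high, 2.08 ± 0.190 in CD49f-low and 3.38 ± 0.850 in CD49f-neg. It was lower in CD49f-high than in CD49f-neg (-1.27 ± 0.19, limma adjusted p = 0.00105) and than in CD49f-low (-0.77 ± 0.19, adjusted p = 0.0199), where the call ended under quantile normalization, with no filter and without CD49f-low replicate 1 or 3 or CD49f-high replicate 1 (up to 0.0738). In all, 2 of the 5 rows were called lower in CD49f-high than in CD49f-neg and 2 lower than in CD49f-low, with 0 higher. Of all rows, 8.27% and 10.5% were called lower in these comparisons. The long noncoding RNA Hotair, antisense within the Hoxc cluster, was listed at 0 in all CD49f-high and CD49f-low libraries and at 0, 0.0238 and 0.101 FPKM in the CD49f-neg libraries. Of 9 genes that flank the clusters and had a row, 4 were tested, and Mtx2 beside Hoxd was lower in CD49f-high than in CD49f-low (-0.49, adjusted p = 0.0151), with none called in the other comparisons. The Mtx2 call ended under median-of-ratios scaling and without CD49f-low replicate 2 or 3 or CD49f-high replicate 3 (up to 0.0832).

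Of the DNA-binding partners of Hox proteins, Meis1 was lower in CD49f-high than in both other gates. Of 7 tested TALE genes, CD49f-high had 3 called lower and 1 higher against CD49f-neg, 3 lower and 0 higher in CD49f-high than in CD49f-low, and 1 higher and 0 lower in CD49f-low than in CD49f-neg. The shares over all rows were 8.27% lower and 13.9% higher, 10.5% lower and 5.93% higher, and 2.62% lower and 12.8% higher in the same order of comparisons, and the group itself was not tested. Meis1 had 1.69, 1.71 and 1.26 FPKM in CD49f-high, 5.86, 5.47 and 6.80 FPKM in CD49f-low and 5.80, 6.77 and 6.79 FPKM in CD49f-neg. All CD49f-high libraries were below all others, and the log2 difference was -1.55 ± 0.12 against CD49f-neg and -1.46 ± 0.12 against CD49f-low (limma adjusted p = 2.71e-05 and 7.92e-05). Meis2 was lower in the same comparisons (-0.70 and -0.51, limma adjusted p = 0.00556 and 0.0331). The row that joins Pbx2 with Gpsm3, so that it is uncertain which gene was measured, was above CD49f-neg in CD49f-high (0.46, limma adjusted p = 0.0348). Pbx3 was above CD49f-neg in CD49f-low (0.62, limma adjusted p = 0.00837). Pbx3 had 0.700, 0.773 and 0.740 FPKM in CD49f-neg and passed the filter through the other gates, which favoured this direction. The Pbx2 call and that of Meis2 against CD49f-low ended under both scalings (adjusted p up to 0.108 and 0.118), and the Pbx3 call under quantile normalization (0.101).

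Genes of retinoic acid turnover differed in both directions. Cyp26b1, which breaks retinoic acid down, had 21.8, 10.3 and 7.19 FPKM in CD49f-high, 89.0, 60.2 and 80.4 FPKM in CD49f-low and 70.8, 68.2 and 79.3 FPKM in CD49f-neg, and was lower in CD49f-high by -2.52 ± 0.32 against CD49f-neg and -2.58 ± 0.32 against CD49f-low (limma adjusted p = 0.000421 and 0.000579). Aldh1a2, which makes retinoic acid, had 1.94, 2.06 and 2.09 FPKM in CD49f-high, 0.359, 0.461 and 0.614 FPKM in CD49f-low and 0.167, 0.101 and 0.0324 FPKM in CD49f-neg. Aldh1a2 reached 1 FPKM in the CD49f-high libraries alone and passed the filter through them, so a difference was built in. It was higher in CD49f-high by 1.46 ± 0.12 against CD49f-neg and 1.04 ± 0.12 against CD49f-low (adjusted p = 2.79e-05 and 0.000364). The receptor Rarg was lower in CD49f-high than in CD49f-neg (-0.82, limma adjusted p = 0.00126) and CD49f-low (-0.59, limma adjusted p = 0.0102). Rarb was higher in CD49f-low than in CD49f-neg (0.74, limma adjusted p = 0.00516). Rarb had 0.671, 0.690 and 0.680 FPKM in CD49f-neg and passed the filter through the other gates, which favoured this direction. Gdf11, a ligand that sets the onset of posterior Hox genes in the embryo, was above CD49f-neg (0.66, adjusted p = 0.0212) in CD49f-high, and above CD49f-low (0.65, adjusted p = 0.0287). Over the 7 tested genes of this list, 2 were higher and 2 lower in CD49f-high than in CD49f-neg, 3 higher and 0 lower in CD49f-low than in CD49f-neg, and 2 higher and 3 lower in CD49f-high than in CD49f-low, against the shares over all rows given for the TALE genes. Of the 3 higher in CD49f-low than in CD49f-neg (Rara, Rarb and Aldh1a2), Rara and Aldh1a2 ended under both scalings (adjusted p up to 0.271 and 0.614). Of the 3 lower against CD49f-low, Rarb ended under both scalings (up to 0.191) and Rarg under median-of-ratios scaling (0.0506), and the Gdf11 call against CD49f-neg ended under quantile normalization. Of the calls named for these and the TALE genes, those of Pbx2 and Gdf11 ended without at least 1 of the libraries. So did those of Meis2, Rarg and Rarb in CD49f-high against CD49f-low, and of Rara and Aldh1a2 in CD49f-low against CD49f-neg. The part of these genes in the Hox differences was not tested.

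**Figure D4:**
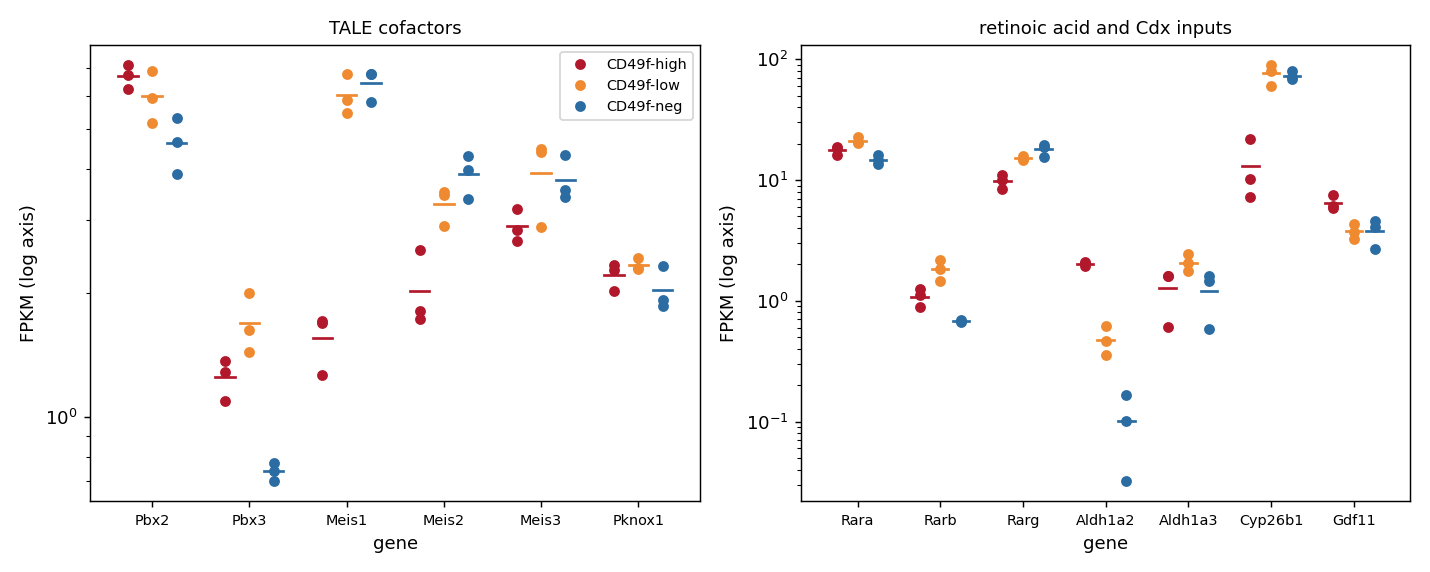
FPKM on a log axis of TALE cofactors (left) and of genes of retinoic acid turnover, its receptors and Gdf11 (right) in every library (points) with gate means (bars). Meis1 (1.26 to 1.71 FPKM) and Cyp26b1 (7.19 to 21.8 FPKM) lie lower in CD49f-high than in the other gates, and Aldh1a2 (1.94 to 2.09 FPKM) lies higher.

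Of 16 tested Polycomb genes, 3 were higher and 1 lower in CD49f-high than in CD49f-neg, 4 higher and 0 lower in CD49f-low than in CD49f-neg, and 0 higher and 3 lower in CD49f-high than in CD49f-low. In the same order, the shares over all rows were 13.9% higher and 8.27% lower, 12.8% and 2.62%, and 5.93% and 10.5%. They apply to the Trithorax and demethylase counts below too, and neither list was tested as a group. Of the Polycomb calls against CD49f-neg, those of Phc2 and Ezh2 ended under both scalings, as did the 3 against CD49f-low (Ezh2, Bmi1 and Phc3), and Phc3 against CD49f-neg was called in 5 of 17 alternatives. Jarid2, a Polycomb recruitment subunit, averaged 6.51 ± 0.577 FPKM in CD49f-high, 6.59 ± 0.850 in CD49f-low and 3.45 ± 0.741 in CD49f-neg (0.77 and 0.78 above CD49f-neg, limma adjusted p = 0.0043 and 0.00701). Ezh2, the methyltransferase, was higher in CD49f-low than in CD49f-neg (0.47, adjusted p = 0.0196), a call that ended under both scalings (adjusted p up to 0.224). Of 9 Trithorax and demethylase genes tested, Kdm6b was above CD49f-neg in CD49f-high (0.44, adjusted p = 0.0293) and Rbbp5 lower in CD49f-high than in CD49f-low (-0.43, adjusted p = 0.0433), with none called in CD49f-low against CD49f-neg. Kdm6b was called in 11 of 18 alternatives, ending under median-of-ratios scaling and without CD49f-neg replicate 2 or 3 or CD49f-high replicate 1 (adjusted p up to 0.107). Rbbp5 was called in 7 of 18, ending under both scalings and without CD49f-neg replicate 3 or any 1 of the CD49f-low or CD49f-high libraries (up to 0.212).

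Other position factors were set beside the Hox genes. Of 9 tested limb and trunk factors, Tbx2, Tbx18 and Shox2 were higher and Tbx5, Hand2, Emx2 and En1 lower in CD49f-high than in CD49f-neg, 3 were higher and 1 lower in CD49f-low than in CD49f-neg, and 1 was higher and 3 lower in CD49f-high than in CD49f-low. Shares over all rows for these and the head mesenchyme counts below are those given for the Polycomb genes. The 3 higher in CD49f-low were also Tbx2, Tbx18 and Shox2, where 12.8% of all rows were called higher; Tbx18 and Shox2 ended under both scalings and Tbx2 under quantile normalization (adjusted p up to 0.365, 0.336 and 0.119). Hand2, a posterior limb factor, averaged 0.489 ± 0.0486 FPKM in CD49f-high, 3.38 ± 0.373 in CD49f-low and 2.49 ± 0.690 in CD49f-neg, and Tbx5, a forelimb factor, 0.466 ± 0.105, 1.75 ± 0.224 and 1.66 ± 0.414 FPKM in the same order. Both were lower in CD49f-high than in CD49f-neg (-1.21 and -0.85, limma adjusted p = 0.000481 and 0.00223). Neither reached 1 FPKM in a CD49f-high library, so both passed the filter through the other gates, which favoured a lower CD49f-high level. Of 4 tested head mesenchyme factors, which mark cells where Hox genes are silent in the face, Alx1 and Alx4 were higher in CD49f-low than in CD49f-neg (1.27 and 3.44, adjusted p = 9.72e-05 and 0.000215), and all 4 were lower in CD49f-high than in CD49f-low. Alx1 reached 1 FPKM in the CD49f-low libraries alone (1.32 to 1.64 FPKM, against at most 0.0353 FPKM elsewhere) and passed the filter through them, so a difference was built in. Alx4 had 3.55, 7.85 and 2.61 FPKM in CD49f-high, 21.7, 34.8 and 40.3 FPKM in CD49f-low and 1.17, 2.32 and 2.64 FPKM in CD49f-neg. Alx4 is also used in trunk and limb mesenchyme, and the labels name no body site, so the origin of the cells along the body axis was not tested.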

How the data were processed

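RNA was taken from 9 libraries of sorted dermal cells, 3 per gate. The authors deposited 1 table of FPKM values, made with FastQC, TopHat2 and StringTie on GRCm38, per the submitters' processing notes; versions and strand setting are not given in the sources used here. Each column was matched to a library by its name. FPKM depend on library composition, and depth was estimated from the spacing of low values. Rows with at least 1 FPKM in at least 3 libraries were fitted with limma 3.58.1 (R 4.3.3) on log2(FPKM + 1), with 1 mean per gate, an empirical Bayes trend, 6 residual degrees of freedom and no block. P-values are two-sided and Benjamini-Hochberg adjusted over 20523 rows, at 0.05. The fit was tested on simulated data. Tables used pandas 2.3.3 and numpy 2.4.6, and plots matplotlib 3.10.9, under Python 3.11.15.

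Libraries with the same replicate number deviated together (correlations of 0.252 to 0.52 over 9 pairs) while those with different numbers did not (-0.453 to 0.118 over 18), so the numbers were treated as pairs in the blocked alternative. The fit was repeated with no filter, with a minimum of 5 FPKM, with 0.1 as pseudocount, under median-of-ratios and quantile scaling, with no trend, on the 6 libraries compared, and with each library left out. Leaving out replicate 1 of every gate was added after seeing the data. Every library value is given for Hox rows called in a comparison or averaging at least 5 FPKM in a gate; from other lists at most 4 called genes are named per comparison. Hoxa4, Hoxa11, Hoxb8, Hoxc13, Hotair and the uncalled Hoxb rows with means were singled out after their values were seen. So was the most abundant further row of the Hoxb interval. Members and lists were chosen with earlier results of these data known. Some genes of these lists are not reported here by name but are part of the counts and sums.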

Additional observations from a re-analysis of the deposited data

How the results depend on the processing

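None of the 30 Hox differences followed reversed in 504 refits: 423 kept their side of the threshold, 60 calls were lost and 21 gained, and the cause was not tested. In CD49f-high against CD49f-neg, 9 Hox rows were lower; the stricter filter, which tests 4 Hox rows, called 3 (Hoxc8, Hoxb9 and, not among the 9, Hoxd8), and leaving out 1 library gave 6 to 10. No filter added 1 higher row. In CD49f-low against CD49f-neg (2 higher, 1 lower), median-of-ratios and quantile scaling each gave 0 higher and 3 lower, the stricter filter 0 higher, no filter and pseudocount 0.1 each 0 lower, the replicate block 3 higher and 2 lower, omission of replicate 1 of every gate 1 higher, and leaving out 1 library 0 to 3 higher and 0 to 1 lower. In CD49f-high against CD49f-low (11 lower), both scalings gave 7, the stricter filter 1, and leaving out 1 library 6 to 11; the replicate block gave 11. Over all rows, CD49f-high against CD49f-neg had 2844 higher and 1697 lower; the stricter filter gave 1175 and 736, and leaving out 1 library 1874 to 2957 and 1076 to 1623. CD49f-low against CD49f-neg had 2623 higher and 537 lower, against 1135 and 1047 under median-of-ratios scaling, 1040 and 1004 under quantile normalization, 4916 and 890 with the replicate block, 1105 and 253 under the stricter filter, and 1021 to 3140 and 203 to 620 leaving out 1 library. CD49f-high against CD49f-low had 1216 higher and 2151 lower; lower rows numbered 1356 and 1431 under the scalings and 3652 with the block, the stricter filter gave 519 and 804, omission of replicate 1 of every gate 758 and 1410, and leaving out 1 library 645 to 1321 and 1012 to 2272. The replicate block changed no Hox call other than those given beside the results. Most Hox rows held few fragments (Hoxa6 an estimated 19 to 69 per library, Hoxb5 20 to 98, Hoxc8 186 to 836), which limits what could be detected.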
